A study of Mus musculus with 2 samples.

Results

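The genes described here encode the subunits of the mitochondrial respiratory chain and of ATP synthase. They were taken from the deposited expression table by gene symbol alone, as the rows named Nduf, Sdh, Uqcr, Cyc1, Cycs, Cox4 to Cox8 or Atp5 with the suffixes of structural subunits. The rule matched 86 of 23176 rows: 37 of complex I, 4 of complex II, 9 of complex III, 1 of cytochrome c, 19 of complex IV and 16 of complex V. One match, Cox4nb, is no respiratory subunit, since RefSeq lists that symbol as a synonym of Emc8, a subunit of a membrane protein insertion complex of the endoplasmic reticulum. It is kept in the counts and named where it matters. Atp5s, an assembly-related factor that RefSeq names Dmac2l, is also kept, under complex V. Cox7a2l, which joins complexes III and IV into supercomplexes, is kept under complex IV.

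The samples were a pair of immortalised mouse striatal cell lines of 129SvEv/CD1 strain, derived from embryos of day 14. STHdhQ111 cells carry the HdhQ111/Q111 genotype, the expanded form of huntingtin that models Huntington's disease, and STHdhQ7 cells carry HdhQ7/Q7. Both were under passage 15, were grown at 33 °C and were held at 39 °C for 2 days before RNA was taken. Each line is represented by 1 value per gene in FPKM (fragments per kilobase of transcript, scaled to the number of mapped fragments), which the authors combined over 3 replicates, so no replicate spread can be shown and genotype cannot be told apart from other differences between the 2 lines. The depth of the libraries is unknown. Htt itself was listed at 2.83 FPKM in STHdhQ111 and 3.91 FPKM in STHdhQ7, with q = 0.663 in the authors' deposited table. Striatal and neuronal markers were sparse: 7 of 8 medium spiny neuron markers and 4 of 5 pan-neuronal markers in the table were under 0.5 FPKM in both lines, and Drd1a was listed at 0 in both. The exceptions were Penk, at 6.49 FPKM in STHdhQ111 and 2.85 FPKM in STHdhQ7, and Tubb3, at 3.62 FPKM in STHdhQ111 and 2.42 FPKM in STHdhQ7. Of 4 astrocyte markers 3 were under 0.5 FPKM in both lines, and Aldh1l1 was at 9.29 FPKM in STHdhQ111 and 10.4 FPKM in STHdhQ7. All markers listed for oligodendrocytes, microglia and leukocytes, and endothelium were also under 0.5 FPKM in both lines.

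Complex I oxidises NADH and complex II oxidises succinate; both pass electrons through ubiquinone to complex III, and cytochrome c carries them on to complex IV, which reduces oxygen. Complexes I, III and IV pump protons across the inner mitochondrial membrane, and complex V (ATP synthase) uses that gradient to make ATP. Nearly all subunits are encoded in the nucleus. The 13 mitochondrially encoded subunits have no rows in the table and were not analysed here. Loss of complex II and III activity is a known feature of the striatum in Huntington's disease.

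Most respiratory chain mRNAs were measured at similar levels in STHdhQ111 and STHdhQ7. A gene is referred to as called when the authors' Cuffdiff test gave it a q of 0.05 or less. Of the 86 genes, 81 had a test, and 2 were called, both lower in STHdhQ111: Cox6b2, an isoform subunit of complex IV, and Cox4nb. That is 2.47% of the tested genes of the set, against 13.5% of all 12740 tested genes (6.35% higher and 7.17% lower). Over all rows, tested or not, the share was 2.33% of the set against 7.43% of the table. None was called higher, and at an unadjusted p of 0.05 or less 1 gene was higher (Ndufv3) and 3 were lower (Cox6b2, Cox4nb and Cox7a1), where 21.2% of all tested genes passed that p. In RNA from a whole culture, fewer cells of a kind and less RNA per cell cannot be told apart.

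**Figure D1:**
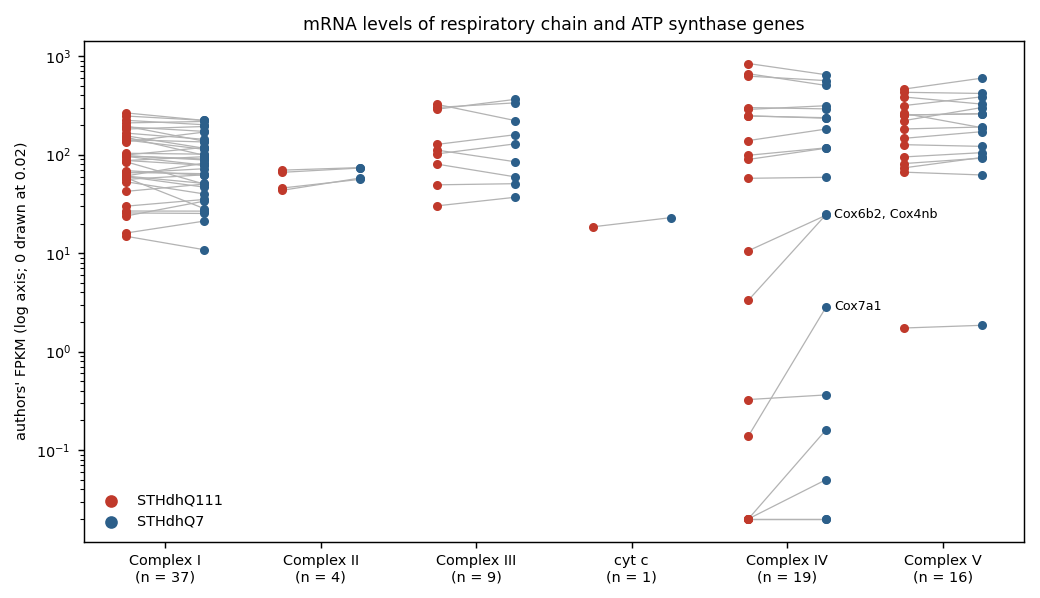
The authors' FPKM of all 86 genes on a log axis, with STHdhQ111 left of STHdhQ7 within each complex and a line joining the values of a gene. Most lines are close to level; in complex IV, Cox6b2, Cox4nb and Cox7a1 are lower in STHdhQ111, and the genes drawn at 0.02 are listed at 0.

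The sizes of the changes were small. Ratios were taken of STHdhQ111 over STHdhQ7 after adding 0.5 to each FPKM. Their median was -0.03 (log2) over the tested members and -0.05 over all tested genes. It was above 0 (0.02) when the ratios were recentred by the median of expressed genes, itself -0.05. The members split into 39 with the higher value in STHdhQ111 and 42 with the lower. The change was within 1.5-fold for 75 of 81 members (92.6%), against 63.7% of all tested genes with a fold change. Since members are abundant, the same was counted among genes with a mean of at least 20 FPKM: 72 of 75 members (96.0%) and 76.1% of all 3889 such genes. On the log2 scale the standard deviation over genes was 0.31 among these members and 0.95 among all genes of that level. None of these 75 members was called, against 9.31% of all genes of that level. Of the 75, 1 had an unadjusted p of 0.05 or less, against 15.5%. The cut was on the mean of both lines, and it left out both called members, so the lack of calls follows from it. Cox6b2 and Cox4nb had 24.7 and 24.3 FPKM in STHdhQ7, and 3.33 and 10.6 FPKM in STHdhQ111. Cox7a1 was also left out. Without the cut, the standard deviation was 0.67 over the 81 tested members and 1.48 over all tested genes. These shares describe the set, and no test of the set was made.

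How far a lack of calls limits a change depends on the error. Dividing the log2 fold change by the statistic in the authors' deposited table gives an implied standard error, with a median of 0.39 over the tested members. The replicates behind it may not be separate cultures, so intervals from this error may cover technical spread only. The smallest change called in the whole table was 2.03-fold. For 37 of the 81 members (45.7%) the 95% interval from this error lay wholly within a 2-fold change in either direction, against 21.4% of all tested genes. For the other members the interval reached past 2-fold on at least 1 side. Among genes with a mean of at least 20 FPKM, the interval lay within 2-fold for 49.3% of members and 37.7% of all genes. The smallest implied standard error over all tested genes was 0.37, so only small changes could give an interval within 2-fold.

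**Figure D2:**
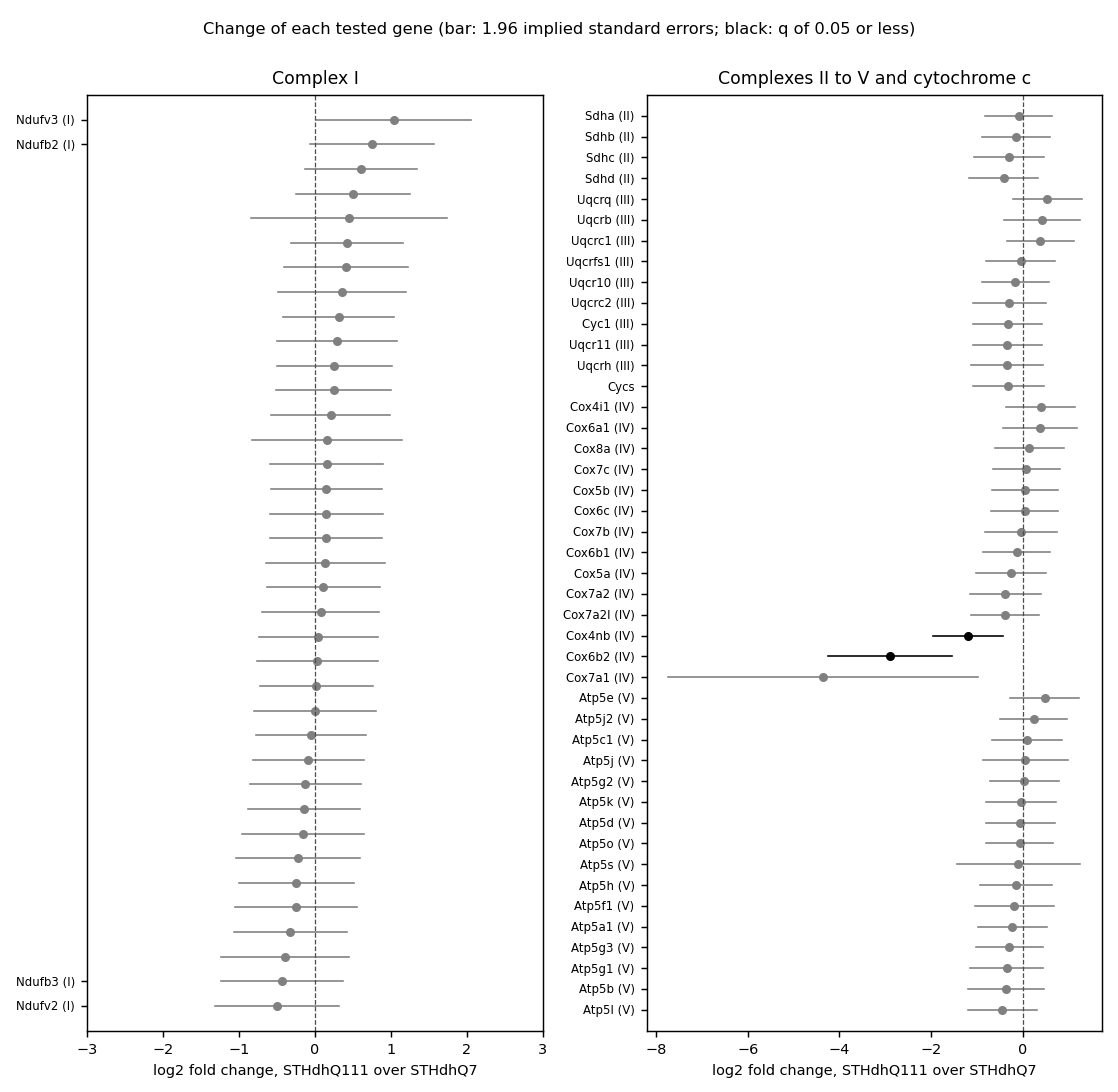
The log2 fold change of each of the 81 tested genes, STHdhQ111 over STHdhQ7, with bars showing the 95% interval from the implied standard error, by complex; in complex I the ends of the range are named, and elsewhere every gene is, with its complex in brackets. Black marks the 2 called genes, Cox6b2 (-2.89) and Cox4nb (-1.20); all other bars except those of Cox7a1 and Ndufv3 cross 0.

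Complex I was the only complex whose median lay above 0, at 0.14, with 25 of 37 genes higher in STHdhQ111 and 12 lower, where 45.5% of all tested genes were higher. None was called, and Ndufv3 alone had an unadjusted p of 0.05 or less. The summed FPKM of complex I was 3884 in STHdhQ111 and 3556 in STHdhQ7, a ratio of 1.09. The flavoprotein subunits at the NADH end of the enzyme held both the highest and the lowest change. Ndufv3, an accessory subunit there, had 58.1 FPKM in STHdhQ111 and 28.4 FPKM in STHdhQ7. The authors' deposited table lists Ndufv3 with a log2 fold change of 1.04 (implied standard error 0.52, 95% interval 0.01 to 2.06) and q = 0.229. Ndufv2, which binds an iron-sulfur cluster, had 23.9 FPKM in STHdhQ111 and 33.7 FPKM in STHdhQ7 (interval -1.32 to 0.32, q = 0.656 in the authors' deposited table). Ndufv1, which binds the flavin, had 87.2 FPKM in STHdhQ111 and 95.4 FPKM in STHdhQ7.

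The other core subunits of complex I, which carry the chain of iron-sulfur clusters or surround the quinone site, lay on both sides. Ndufs1 was listed at 16.03 FPKM in STHdhQ111 and 21.15 FPKM in STHdhQ7, and Ndufs8 at 65.1 FPKM in STHdhQ111 and 72.0 FPKM in STHdhQ7. Ndufs7 was listed at 166 FPKM in STHdhQ111 and 143 FPKM in STHdhQ7, and Ndufs3 at 60.6 FPKM in STHdhQ111 and 51.0 FPKM in STHdhQ7. The q values of these genes and Ndufv1 in the authors' deposited table ran from 0.787 for Ndufs1 to 0.966 for Ndufv1. Among the accessory subunits, Ndufb2 had 84.6 FPKM in STHdhQ111 and 50.4 FPKM in STHdhQ7 (q = 0.309 in the authors' deposited table). Ndufa13, also known as the cell death regulator GRIM-19, had 150.2 FPKM in STHdhQ111 and 98.6 FPKM in STHdhQ7 (q = 0.407 in the authors' deposited table). At the low end, Ndufb3 had 60.9 FPKM in STHdhQ111 and 82.1 FPKM in STHdhQ7. By mean level over both lines, the most abundant gene of the group was Ndufb7, at 265 FPKM in STHdhQ111 and 223 FPKM in STHdhQ7. The least was Ndufs5, at 14.8 FPKM in STHdhQ111 and 10.8 FPKM in STHdhQ7. By the same mean, the remaining 23 accessory genes ran from Ndufa11 to Ndufb9. Ndufa11 had 25.6 FPKM in STHdhQ111 and 25.3 FPKM in STHdhQ7, and Ndufb9 had 210.3 FPKM in STHdhQ111 and 217 FPKM in STHdhQ7. The log2 fold changes of these 23 genes lay between -0.32 (Ndufb10) and 0.50 (Ndufb6) in the authors' deposited table, and none was called. Ndufa4, which bears a complex I name but is now known as a subunit of complex IV, had 247 FPKM in STHdhQ111 and 223 FPKM in STHdhQ7.

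All 4 genes of complex II, the succinate dehydrogenase shared with the tricarboxylic acid cycle, were lower in STHdhQ111 by small amounts, and none was called or had an unadjusted p of 0.05 or less. The catalytic flavoprotein gene Sdha had 69.6 FPKM in STHdhQ111 and 73.9 FPKM in STHdhQ7, and the iron-sulfur subunit Sdhb had 66.2 FPKM in STHdhQ111 and 73.1 FPKM in STHdhQ7. The membrane anchors were further apart: Sdhc had 45.8 FPKM in STHdhQ111 and 56.1 FPKM in STHdhQ7, and Sdhd had 43.4 FPKM in STHdhQ111 and 57.8 FPKM in STHdhQ7. Sdhd had the largest change of the 4, a log2 fold change of -0.41 (implied standard error 0.39) with q = 0.721 in the authors' deposited table. The median log2 ratio of the complex was -0.22, and each gene's change was close to or under its implied standard error.

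Complex III gave 3 genes higher and 6 lower in STHdhQ111, a median log2 ratio of -0.15, and no gene called or with an unadjusted p of 0.05 or less. Its redox subunits encoded in the nucleus are cytochrome c1 (Cyc1) and the Rieske iron-sulfur protein (Uqcrfs1). Cyc1 had 127 FPKM in STHdhQ111 and 159 FPKM in STHdhQ7, and Uqcrfs1 had 49.4 FPKM in STHdhQ111 and 50.7 FPKM in STHdhQ7. The core proteins lay on opposite sides of 0: Uqcrc1 had 111.2 FPKM in STHdhQ111 and 84.8 FPKM in STHdhQ7, whereas Uqcrc2 had 30.2 FPKM in STHdhQ111 and 36.9 FPKM in STHdhQ7. Among the small subunits Uqcrq had the largest change, with 324 FPKM in STHdhQ111 and 222 FPKM in STHdhQ7 (q = 0.512 in the authors' deposited table). Uqcrb had 80.1 FPKM in STHdhQ111 and 59.5 FPKM in STHdhQ7, and Uqcrh, the hinge protein, had 102 FPKM in STHdhQ111 and 129 FPKM in STHdhQ7. The remaining small subunits were abundant, with Uqcr10 at 302 FPKM in STHdhQ111 and 336 FPKM in STHdhQ7. Uqcr11 had 290.0 FPKM in STHdhQ111 and 364 FPKM in STHdhQ7. The somatic cytochrome c gene Cycs, whose protein also triggers apoptosis when it leaves mitochondria, had 18.5 FPKM in STHdhQ111 and 22.9 FPKM in STHdhQ7 (q = 0.853 in the authors' deposited table).

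Complex IV, cytochrome c oxidase, held both called genes, Cox4nb included, and all 5 genes without a test. Its 2 called genes were 14.3% of its 14 tested genes, a share near the 13.5% of all tested genes. Several of its common subunits were among the most abundant mRNAs of the whole set, and none of the common subunits was called. Cox6a1 had 843 FPKM in STHdhQ111 and 648 FPKM in STHdhQ7, Cox4i1 had 664 FPKM in STHdhQ111 and 505 FPKM in STHdhQ7, and Cox8a had 627 FPKM in STHdhQ111 and 565 FPKM in STHdhQ7. The q values of these genes in the authors' deposited table were 0.796 for Cox6a1, 0.738 for Cox4i1 and 0.961 for Cox8a. Of the subunits on the matrix side, Cox5a had 98.6 FPKM in STHdhQ111 and 117 FPKM in STHdhQ7, and Cox5b had 247 FPKM in STHdhQ111 and 237 FPKM in STHdhQ7. Cox6c, Cox7b and Cox7c, small membrane subunits, had log2 fold changes between -0.03 and 0.08 in the authors' deposited table. Cox7a2l, which joins complexes III and IV into supercomplexes, had 139 FPKM in STHdhQ111 and 182 FPKM in STHdhQ7 and was not called (q = 0.743 in the authors' deposited table). The median log2 ratio over the 14 tested genes was -0.08, while their mean was -0.45. Cox6b2, Cox7a1 and Cox4nb had the lowest ratios.

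Apart from Cox4nb, the largest differences within complex IV were in isoforms that are minor in these lines. Cox6b2, known as the testis isoform of the subunit that holds the oxidase dimer together, fell to 3.33 FPKM in STHdhQ111, against 24.7 FPKM in STHdhQ7. The authors' deposited table lists Cox6b2 with a log2 fold change of -2.89 (implied standard error 0.69, interval -4.25 to -1.54) and q = 0.000525. Its ubiquitous counterpart Cox6b1 had 288 FPKM in STHdhQ111 and 314 FPKM in STHdhQ7 (interval -0.86 to 0.61, q = 0.969 in the authors' deposited table). Cox6b2 thus made up 1.14% of the summed FPKM of the pair in STHdhQ111 and 7.29% in STHdhQ7. The spermatid markers Tnp1 and Prm2 were listed at 0 in both lines, and Prm1 was at 0.112 FPKM in STHdhQ111 and listed at 0 in STHdhQ7.

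Cox7a1, the heart and skeletal muscle isoform of another small subunit, had 0.139 FPKM in STHdhQ111 and 2.84 FPKM in STHdhQ7. Its log2 fold change of -4.36 has a wide interval, -7.75 to -0.96, and missed the threshold with q = 0.078 in the authors' deposited table. With a pseudocount of 0.5 the log2 ratio of Cox7a1 was -2.39, since the value in STHdhQ111 is near 0. The counterpart Cox7a2 had 89.5 FPKM in STHdhQ111 and 116 FPKM in STHdhQ7 and was not called (q = 0.771 in the authors' deposited table). Striated muscle markers summed to 0.856 FPKM in STHdhQ111 and 12.4 FPKM in STHdhQ7. In STHdhQ7 most of that sum came from Tnnt2, a troponin of embryonic and cardiac muscle, at 0.134 FPKM in STHdhQ111 and 12.2 FPKM in STHdhQ7 (q = 4.08e-07 in the authors' deposited table). Myh7 was listed at 0 in both lines. The highest of the list in STHdhQ111 was Ckm, at 0.548 FPKM in STHdhQ111 and 0.171 FPKM in STHdhQ7. Myog was at 0.137 FPKM in STHdhQ111 and listed at 0 in STHdhQ7. Actn2 was at 0.0377 FPKM in STHdhQ111 and 0.0270 FPKM in STHdhQ7. Ckm, Myog and Actn2 thus had the higher value in STHdhQ111, and Tnnt2 alone made the sum lower there. The part of muscle-type expression in the Cox7a1 result was not tested.

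**Figure D3:**
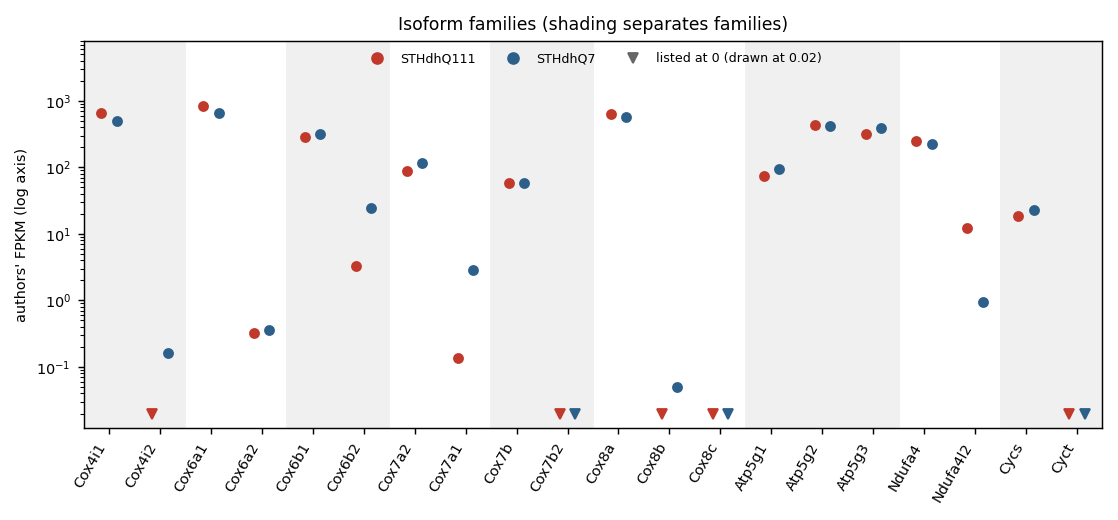
The authors' FPKM of isoform families on a log axis, STHdhQ111 left of STHdhQ7 for each gene, with triangles at 0.02 for genes listed at 0. Cox6b2 (3.33 in STHdhQ111 and 24.7 in STHdhQ7) and Cox7a1 (0.139 in STHdhQ111 and 2.84 in STHdhQ7) are lower in STHdhQ111, while the common isoforms beside them are close in both lines.

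The other tissue isoforms were at or near 0 in both lines. Cox4i2, an isoform known from lung and linked to oxygen sensing, was listed at 0 in STHdhQ111 and 0.161 FPKM in STHdhQ7. Cox6a2, the muscle isoform of Cox6a, was at 0.326 FPKM in STHdhQ111 and 0.363 FPKM in STHdhQ7. Cox8b was listed at 0 in STHdhQ111 and 0.0501 FPKM in STHdhQ7, and Cox7b2 and Cox8c were listed at 0 in both lines. These 5 genes had no test. Outside the matched rows, the testis cytochrome c gene Cyct was listed at 0 in both lines. Ndufa4l2, a hypoxia-responsive relative of Ndufa4, was at 12.3 FPKM in STHdhQ111 and 0.937 FPKM in STHdhQ7. Its log2 fold change of 3.72 in the authors' deposited table had an implied standard error of 2.45 and was not called (q = 0.457).

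Promoter sequences are shown for Cox6b2 and Cox7a1, the structural subunits furthest from 0, each above its ubiquitous counterpart, so that the divergent pairs can be compared. They are the 250 bases before each gene's start in RefSeq (build GRCm38.p6, which differs from the mm9 build of the expression table), 5′ to 3′ on the gene's strand. Capitals mark the matches of CCAAT (NF-Y), GGGCGG (Sp1) and CCGGAAG (GABP and other ETS factors) on either strand, and no matches overlapped. Cox6b2 lies at chr7:4753095-4753344 on the minus strand, Cox6b1 at chr7:30626115-30626364 on the minus strand, Cox7a1 at chr7:30183921-30184170 on the plus strand and Cox7a2 at chr9:79759854-79760103 on the minus strand.
Cox6b2: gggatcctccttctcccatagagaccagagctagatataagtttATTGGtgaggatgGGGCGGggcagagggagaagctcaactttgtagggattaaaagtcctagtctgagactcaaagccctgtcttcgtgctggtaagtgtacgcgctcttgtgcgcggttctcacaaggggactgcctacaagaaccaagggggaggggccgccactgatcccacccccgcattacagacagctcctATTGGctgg
Cox6b1: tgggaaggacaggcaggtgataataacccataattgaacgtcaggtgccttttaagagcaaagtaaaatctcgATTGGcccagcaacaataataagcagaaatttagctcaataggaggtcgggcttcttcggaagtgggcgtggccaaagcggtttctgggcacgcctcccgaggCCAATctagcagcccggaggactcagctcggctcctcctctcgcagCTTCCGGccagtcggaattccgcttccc
Cox7a1: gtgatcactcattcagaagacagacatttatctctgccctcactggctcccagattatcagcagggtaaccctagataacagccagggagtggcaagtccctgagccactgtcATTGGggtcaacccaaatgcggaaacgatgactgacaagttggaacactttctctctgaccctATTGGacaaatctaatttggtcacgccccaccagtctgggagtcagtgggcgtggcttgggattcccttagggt
Cox7a2: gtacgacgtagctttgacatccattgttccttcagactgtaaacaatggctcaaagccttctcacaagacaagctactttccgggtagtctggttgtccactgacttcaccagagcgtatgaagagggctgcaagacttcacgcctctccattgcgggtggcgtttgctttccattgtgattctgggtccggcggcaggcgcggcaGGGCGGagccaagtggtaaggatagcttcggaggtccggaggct
The promoter of Cox7a1 has 4 CpG dinucleotides and that of Cox6b2 has 8, against 14 each in Cox6b1 and Cox7a2. The ETS match lies in Cox6b1, starting 28 bases before its start. A match is a run of letters and not a site known to be bound.

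The same windows were searched in all members with a RefSeq promoter, 70 of 86, and in all 27025 genes of that table, on both strands. The nuclear respiratory factor NRF1 motif, GCGCA and GCGC with any base between them, was found in 13 members (18.6%) and in 4.23% of all genes. Members that hold it include Sdha, Sdhd, Cox6a1, Atp5g2 and Ndufs6. The ETS motif of nuclear respiratory factor 2, CCGGAAG, was found in 12 members (17.1%) and in 7.83% of all genes, and both motifs were present in Cox6a1, Sdhd and Atp5h. The YY1 motif AANATGGC was found in 6 members (8.57%) and 4.49% of all genes, and the estrogen-related receptor motif AAGGTCA in 5 members (7.14%) and 4.70%. CCAAT was found in 44.3% of members and 37.5% of all genes, GGGCGG in 37.1% and 35.4%, and the MEF2 motif, CTA and TAG with any 4 bases between them, in 1 member, Cox5b, and 3.70%. Member promoters held a median of 14 CpG dinucleotides, against 6 over all windows, and the part of base composition in these shares was not tested.

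Cox4nb, which encodes no respiratory subunit, fell to 10.6 FPKM in STHdhQ111, against 24.3 FPKM in STHdhQ7. The authors' deposited table lists Cox4nb with a log2 fold change of -1.20 (implied standard error 0.39, interval -1.96 to -0.44) and q = 0.0187. It lies beside Cox4i1 on chromosome 8 of mm9, at 123177814 to 123192012, and the 2 loci are 177 bases apart. Cox4i1, at 123192190 to 123198109, had the opposite sign (log2 fold change 0.40, interval -0.36 to 1.15, not called in the authors' deposited table). Part of the Cox4i1 sequence also occurs in annotated transcripts of Emc8, so some reads of the 2 genes may not be told apart. The loci of Cox6b2 (chromosome 7, 4703396 to 4704696) and Cox7a1 (chromosome 7, 30969190 to 30971049) overlap no other row of the table.

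Complex V gave 5 genes higher and 11 lower, a median log2 ratio of -0.07, and no gene called or with an unadjusted p of 0.05 or less. The catalytic beta subunit gene Atp5b had 464 FPKM in STHdhQ111 and 598 FPKM in STHdhQ7 (interval -1.20 to 0.46, q = 0.816 in the authors' deposited table). The alpha subunit gene Atp5a1 had 147 FPKM in STHdhQ111 and 171 FPKM in STHdhQ7. In the central stalk, Atp5c1 (gamma) had 66.5 FPKM in STHdhQ111 and 62.2 FPKM in STHdhQ7, and Atp5e (epsilon) had 262 FPKM in STHdhQ111 and 188 FPKM in STHdhQ7. Atp5e and Atp5l marked the ends of the range, with log2 fold changes of 0.48 and -0.44 in the authors' deposited table. Atp5l, a subunit at the dimer interface, had 222 FPKM in STHdhQ111 and 301 FPKM in STHdhQ7. Atp5j2, a small membrane subunit, had 385 FPKM in STHdhQ111 and 327 FPKM in STHdhQ7, and Atp5d and Atp5k had log2 fold changes of -0.06 and -0.03 in the authors' deposited table. In the peripheral stalk, Atp5o, Atp5h, Atp5j and Atp5f1 all had log2 fold changes between -0.18 and 0.06 in the authors' deposited table. Atp5s, an assembly-related factor, was by far the lowest of the group at 1.74 FPKM in STHdhQ111 and 1.85 FPKM in STHdhQ7.

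The ring of c subunits is encoded by 3 genes whose mature proteins are identical and whose transcripts differ. Atp5g2 had 430.0 FPKM in STHdhQ111 and 419 FPKM in STHdhQ7. Atp5g3 had 315 FPKM in STHdhQ111 and 386 FPKM in STHdhQ7, and Atp5g1 had 73.5 FPKM in STHdhQ111 and 93.6 FPKM in STHdhQ7. Atp5g2 held 52.5% of the summed FPKM of the family in STHdhQ111 and 46.6% in STHdhQ7, Atp5g3 38.5% in STHdhQ111 and 43.0% in STHdhQ7, and Atp5g1 8.97% in STHdhQ111 and 10.4% in STHdhQ7. None of the family was called, with q values from 0.820 to 0.995 in the authors' deposited table.

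Levels differed far more between complexes than between lines. The median FPKM of the tested genes was 202 for complex V, 193 for complex IV, 111.2 for complex III, 87.3 for complex I, 56.0 for complex II and 18.5 for Cycs in STHdhQ111. In STHdhQ7 the medians were 189.6 for complex V, 208 for complex IV, 129 for complex III, 82.1 for complex I, 65.5 for complex II and 22.9 for Cycs, so complexes IV and V changed places. Summed FPKM was 2.93% of the table's total in STHdhQ111 and 2.86% in STHdhQ7 for all 86 genes. The ratio of summed FPKM, STHdhQ111 over STHdhQ7, was 0.86 for complex II, 0.98 for complex III, 1.09 for complex IV and 0.94 for complex V. That of complex III was 1.04 without Uqcr11, its most abundant gene by mean level, so its direction turned with 1 gene. That alternative was chosen after seeing the data. FPKM was lower for longer mRNAs, with a Spearman correlation across 81 genes of -0.42 in STHdhQ111 and -0.44 in STHdhQ7. The genes share their libraries and are not independent, and the lengths are those of the longest coding transcript in GENCODE M21, 371 to 4942 bases.

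Subunit genes have many processed pseudogenes, which can take or add reads. Of the 86 genes, 46 shared at least 1 word of 36 bases with an annotated pseudogene, and in the median gene 94.6% of the words occurred in no other gene. The share was under 50% for 4 genes, Atp5l (14.7%), Uqcrb (46.0%), Atp5o (46.6%) and Ndufs3 (49.9%), and their values are uncertain. In the c subunit family it was 60.3% for Atp5g2, 86.8% for Atp5g1 and 100% for Atp5g3. The parts of the family's summed FPKM given above are therefore uncertain too. All words of Cox6b2, Cox7a1 and Ndufv3 were unique, and 93.8% of those of Cox4nb. Of the words of Cox4i1, 14.3% also occurred in transcripts of Emc8 (Cox4nb). A further limit holds for 10 genes whose locus overlaps another row, such as Atp5j with Gabpa and Ndufa13 with Tssk6, because the library method is not described as marking strand.

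Of 44 listed factors that build the chain, 31 had a row under the symbols used, and 1 was called. Of 31 tested assembly factors 1 was called higher, none lower, and 2 had an unadjusted p of 0.05 or less, where 13.5% of all tested genes were called and 21.2% passed that p; the median log2 ratio was -0.06, against -0.05 over all tested genes. The called gene was Uqcc, which helps to assemble cytochrome b into complex III. It rose to 14.4 FPKM in STHdhQ111, against 5.78 FPKM in STHdhQ7. The authors' deposited table lists Uqcc with a log2 fold change of 1.32 and q = 0.0227. Sco2, a copper chaperone of complex IV, had 38.6 FPKM in STHdhQ111 and 17.5 FPKM in STHdhQ7 but was not called (q = 0.771 in the authors' deposited table). The ATP synthase inhibitor Atpif1 had 225 FPKM in STHdhQ111 and 235 FPKM in STHdhQ7, and the copper carrier Cox17 had 107 FPKM in STHdhQ111 and 100.5 FPKM in STHdhQ7.

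None of 15 tested regulators of mitochondrial biogenesis was called by the authors' Cuffdiff test, 1 had an unadjusted p of 0.05 or less, and their median log2 ratio was -0.07, against 13.5% called and 21.2% past that p among all tested genes. That 1 was Ppargc1a, which encodes the coactivator PGC-1alpha, a regulator of respiratory genes much studied in Huntington's disease models. Ppargc1a had 0.828 FPKM in STHdhQ111 and 2.57 FPKM in STHdhQ7, and it missed the threshold with a log2 fold change of -1.63 and q = 0.0572 in the authors' deposited table. Of factors that bind motifs searched above, Nrf1, Gabpa, Yy1 and Esrra were looked up, and none of these was called. Nrf1 had 9.60 FPKM in STHdhQ111 and 10.2 FPKM in STHdhQ7, Gabpa 11.7 FPKM in STHdhQ111 and 12.3 FPKM in STHdhQ7, and Yy1 33.1 FPKM in STHdhQ111 and 23.2 FPKM in STHdhQ7. The estrogen-related receptor gene Esrra had 56.8 FPKM in STHdhQ111 and 38.2 FPKM in STHdhQ7. Polrmt, the mitochondrial RNA polymerase, had 19.5 FPKM in STHdhQ111 and 15.5 FPKM in STHdhQ7. Tfam, which packages and transcribes mitochondrial DNA, had 7.93 FPKM in STHdhQ111 and 10.9 FPKM in STHdhQ7. None of the 76 mitochondrial ribosomal protein genes was called by the same test, 1 (Mrpl36) had an unadjusted p of 0.05 or less, and the median was -0.02, beside the same shares of 13.5% and 21.2% over all tested genes.

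**Figure D4:**
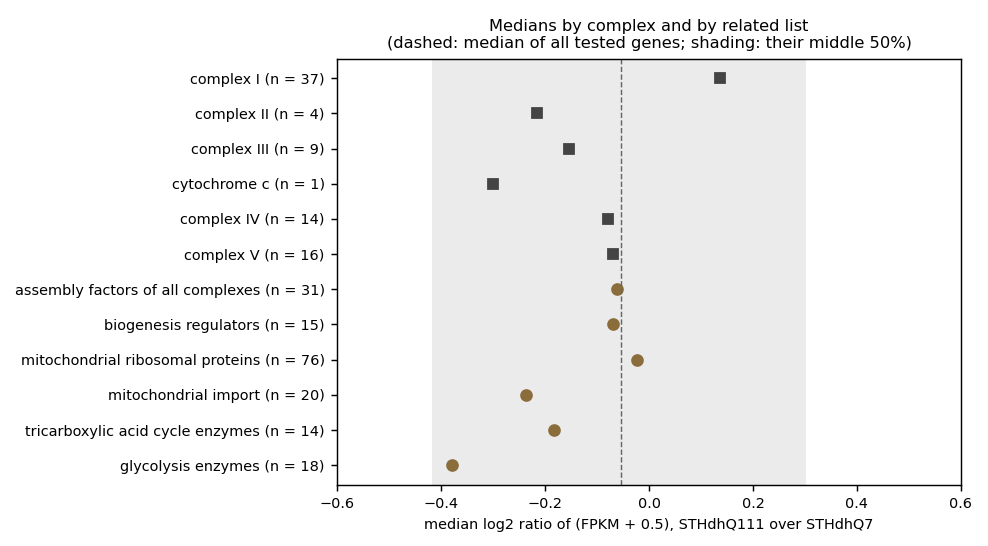
Medians of the log2 ratio, STHdhQ111 over STHdhQ7 with 0.5 added to each FPKM, for each complex (squares) and related list (circles), with the number of tested genes in brackets. The dashed line is the median of all tested genes (-0.05) and the shading their middle 50% (-0.42 to 0.30); complex I lies at 0.14 and glycolysis enzymes at -0.38.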

How the data were processed

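Polyadenylated RNA of the STHdhQ111 and STHdhQ7 lines was sequenced. TopHat 1.4.0, Bowtie 0.12.7, Cufflinks 2.0.2, Cuffdiff and mm9 are named in the submitters' processing notes. The Cuffdiff version and its options were not given in the sources used here. Per the file headers, the deposited table holds FPKM per line, combined over replicates by the authors, their log2 fold change and statistic, and a p-value and q-value per gene. The deposited p-value matched the normal tail of the statistic to within 2.68e-06, and the q-value a Benjamini-Hochberg adjustment across the tested rows to within 2.22e-06. Nothing in the labels says that replicates were separate cultures, so the p-values may measure technical spread only. Low FPKM values showed no common step between the lines (fullest bin 5.02% of 1276 genes), so depth is unknown. Genes of status OK count as tested; 10268 rows were NOTEST, 143 LOWDATA, 24 FAIL and 1 HIDATA. Locus starts were raised by 1, since RefSeq gene lengths were met by end minus start for 7132 symbols and by that plus 1 for 453. Complexes were assigned by symbol. Words of 36 bases were counted against GENCODE M21 transcripts on both strands, since the read length is unknown.

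Members, lists and the rule for naming genes were chosen with earlier results of these data known. Full values go to called genes, the most abundant gene and the 2 largest changes per direction in each complex, catalytic subunits, isoform families and, per pathway list, called genes and the 3 most abundant others. Further list genes were named after their values were seen, and some genes under the rule are not reported here. Python 3.11.15, numpy 2.4.6, pandas 2.3.3 and scipy 1.17.1 were used, and the steps were tested on simulated data. Alternatives covered thresholds, filters, pseudocounts, scaling and membership. RefSeq named all 86 symbols, 3 of them as synonyms.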

Additional observations from a re-analysis of the deposited data

How the results depend on the processing

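The count of members called lower, 2 in the reported setting, was 1 at a q of 0.01 or less (Cox6b2), 0 under Bonferroni adjustment and 1 without Cox4nb, an alternative added after seeing the data. The count called higher was 1 at an unadjusted p of 0.05 or less (Ndufv3) and 0 under the other 7 alternatives. Of those 7, the stricter thresholds, leaving members out and recentring could only return 0, since they add no calls. In place of the median, the mean log2 ratio was -0.012 for complex III and -0.45 for complex IV. The centre of the tested members ran from -0.06 to 0.02 over 11 alternatives. The low end was the mean in place of the median, and the lowest median was -0.04. Of 243 recomputed single-gene changes, 2 moved by more than 1 implied standard error, both of Cox7a1 (-2.39 and -1.75 with pseudocounts of 0.5 and 1). Recentring by -0.05 could move none that far, since the smallest implied standard error among members was 0.37. The pseudocounts could do so only for genes of low FPKM. With 0.5 added to each isoform, Cox7a1 made up 0.705% of its pair in STHdhQ111 and Ndufa4l2 0.639% in STHdhQ7; the shares of isoforms listed at or near 0 moved by construction. Upper quartile and TPM scaling shifted log2 ratios by 0.01 and -0.01. Low genes such as Cox7a1 are limited by depth, which is unknown. Leaving out a replicate could not be run, because the table holds 1 value per line. No paired analysis was possible because the replicates of each line are combined.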

Other observations

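Lists of related energy metabolism gave further values. Of 18 tested glycolysis enzymes 2 were called lower and none higher, 4 had an unadjusted p of 0.05 or less, and 14 were lower in STHdhQ111, with a median log2 ratio of -0.38 against -0.05 over all tested genes. Over all tested genes 13.5% were called and 21.2% passed that p, so these counts are near the background. The called genes are isoforms known for restricted tissues. The muscle enolase gene Eno3 fell to 2.78 FPKM in STHdhQ111, against 18.01 FPKM in STHdhQ7 (q = 7.00e-05 in the authors' deposited table). The brain aldolase gene Aldoc fell to 2.29 FPKM in STHdhQ111, against 9.18 FPKM in STHdhQ7 (q = 0.00383 in the authors' deposited table). The abundant enzymes were not called: Pkm2 had 651 FPKM in STHdhQ111 and 1037 FPKM in STHdhQ7, Aldoa 408 FPKM in STHdhQ111 and 498 FPKM in STHdhQ7, and Gapdh 487 FPKM in STHdhQ111 and 540.2 FPKM in STHdhQ7. The lactate dehydrogenase genes had opposite signs, with Ldha at 307 FPKM in STHdhQ111 and 506 FPKM in STHdhQ7, and Ldhb at 63.7 FPKM in STHdhQ111 and 35.0 FPKM in STHdhQ7 (q = 0.347 for Ldha and 0.157 for Ldhb in the authors' deposited table).

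None of the 14 tested tricarboxylic acid cycle enzymes was called by the authors' Cuffdiff test, 1 had an unadjusted p of 0.05 or less, and the median was -0.18, against 13.5% called and 21.2% past that p among all tested genes. That 1 was Idh2, the mitochondrial NADP-dependent isocitrate dehydrogenase, with 47.1 FPKM in STHdhQ111 and 93.1 FPKM in STHdhQ7 (q = 0.0634 in the authors' deposited table). The abundant cycle enzymes were not called: Mdh2 had 237 FPKM in STHdhQ111 and 263 FPKM in STHdhQ7, and citrate synthase (Cs) had 89.6 FPKM in STHdhQ111 and 122 FPKM in STHdhQ7. Of 20 tested genes of mitochondrial import, none was called or had an unadjusted p of 0.05 or less, 15 were lower in STHdhQ111, and the median was -0.24, beside the same shares over all tested genes. The most abundant was the outer membrane receptor gene Tomm22, with 115 FPKM in STHdhQ111 and 124 FPKM in STHdhQ7.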
